A study of Mus musculus with 6 samples.

Results

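The genes described here are 10 members of the STAT and SOCS signalling families: Stat3, Stat4, Stat5a, Stat5b, Stat6, Socs1, Socs2, Socs3, Cish and Pim1. They were taken by gene symbol from a table of 54532 genes. All 10 had enough reads to be tested, with 896 to 7547 counts per gene and library. The measurements are RNA sequencing counts from mouse CD4+ T cells. The cells were naive T cells from C57BL/6 spleen and were cultured for 72 h with either NETs or vehicle. NETs are neutrophil extracellular traps, the DNA webs with histones and granule proteins that neutrophils release. Both groups received beads against CD3 and CD28, IL-2, and neutralising antibodies to IL-4 and interferon-gamma, so the vehicle cells were also activated and IL-2 fed. Each group had 3 libraries, numbered as in their labels. The sources used here do not give the animals or cultures behind each library, where the NETs came from or how much was added.

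STAT proteins are transcription factors that wait in the cytoplasm. A cytokine brings its receptor chains together, the JAK kinases bound to them phosphorylate each other and the receptor, and STAT proteins dock, are phosphorylated and move to the nucleus as dimers. IL-2 acts mainly through STAT5, which has a pair of closely related forms, and STAT5 is needed for the growth and survival of activated T cells and for regulatory T cells. Among the genes that STAT proteins switch on are inhibitors of the same pathway, CISH and the SOCS proteins, which block receptors or JAK kinases and recruit a ubiquitin ligase. Phosphorylation is not seen in RNA counts, so the values below are transcript levels only.

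A common STAT binding sequence is TTCNNNGAA, a palindrome that reads the same on both strands. It was looked for in windows of 300 bases around RefSeq gene starts (250 before, 50 after; build GRCm38.p6). Windows were found for 9 of the 10 genes; Socs2 had none. Cish and Socs3 held the motif, 2 of 9 genes, where 9.55% of 27025 genes and 8.30% of 32851 windows held it. The stretches are printed because they show both copies in Cish and the copy in Socs3, with the motif in capitals.
Cish, chr9:107296649-107296678, plus strand: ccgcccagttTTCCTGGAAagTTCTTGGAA
Socs3, chr11:117969457-117969556, minus strand: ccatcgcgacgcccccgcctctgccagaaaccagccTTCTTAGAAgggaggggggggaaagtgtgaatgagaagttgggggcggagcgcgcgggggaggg
In Cish the copies lay at bases 1 to 9 and 12 to 20 counted from the RefSeq start. Both fall in a UTR exon of a longer Cish transcript in the GENCODE M21 annotation. In Socs3 the copy lay 154 to 146 bases before the RefSeq start, in an intron of a longer annotated transcript. The bases just after that start were not found in a GENCODE M21 transcript of Socs3, while those after the Cish start were found in one of Cish. A match is a description of these letters, not a bound site.

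Library totals ranged from 15657622 to 18655997 counts. Between NETs and vehicle, edgeR (quasi-likelihood, Benjamini-Hochberg) called 0 of 13900 genes (0%) at the threshold of 0.05, while 1776 (12.8%) were under 0.05 before adjustment and DESeq2 called 130 (0.935%). The p-values measure the spread between these libraries, which may be technical. T cell markers (Cd3d, Cd3e, Cd3g, Cd4, Cd2 and Lck) summed to 2952 to 3364 CPM (counts scaled to the library total) with vehicle and 2999 to 3226 CPM with NETs. The sum of 10 neutrophil markers was 1.68 to 3.38 CPM with vehicle and 4.25 to 4.78 CPM with NETs. Ly6g was at 0 reads in all libraries, and S100a9 was at 0 with vehicle and at 0.932 to 1.30 CPM with NETs. S100a8 was at 0 to 0.0639 CPM with vehicle and 0.408 to 0.598 CPM with NETs. Mpo, the most abundant of these markers with vehicle, overlapped at 0.932 to 2.36 and 1.85 to 2.39 CPM. Ltf, Csf3r, Mmp8 and Elane overlapped between the groups too. Of the 5 monocyte and macrophage markers, which summed to 29.8 to 39.4 CPM with vehicle and 39.3 to 52.0 CPM with NETs, Lyz2 was the most abundant. For scale, the lowest value of any of the 10 STAT and SOCS genes in a library was 52.2 CPM. The part of myeloid RNA in the values below was not tested.

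Of the 10 genes, 0 passed the edgeR threshold (0% of all genes), and 0 passed by DESeq2 (0.935% of all genes) or by limma on FPKM. At an unadjusted p under 0.05 there were 3, Stat4 lower and Socs1 and Cish higher with NETs, beside 12.8% of all genes (6.06% lower, 6.72% higher). The NETs libraries lay wholly apart from the vehicle libraries in 3 genes, below for Stat4 and Stat6 and above for Cish, beside 16.7% of all genes (9.04% below, 7.68% above). The median log2 fold change, NETs over vehicle, was 0.03 over the 10 genes and 0.00 over all genes tested. By family, 3 of 5 STAT genes lay below 0 with a median of −0.08, and all 5 of Socs1, Socs2, Socs3, Cish and Pim1 lay above 0 with a median of 0.19, where 50.2% of all genes lay above 0. Socs3 and Pim1 were among these 5 at only 0.02 and 0.03, and both turned sign when certain single libraries were left out. In bulk RNA, fewer cells of a kind and less RNA per cell cannot be told apart.

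**Figure D1:**
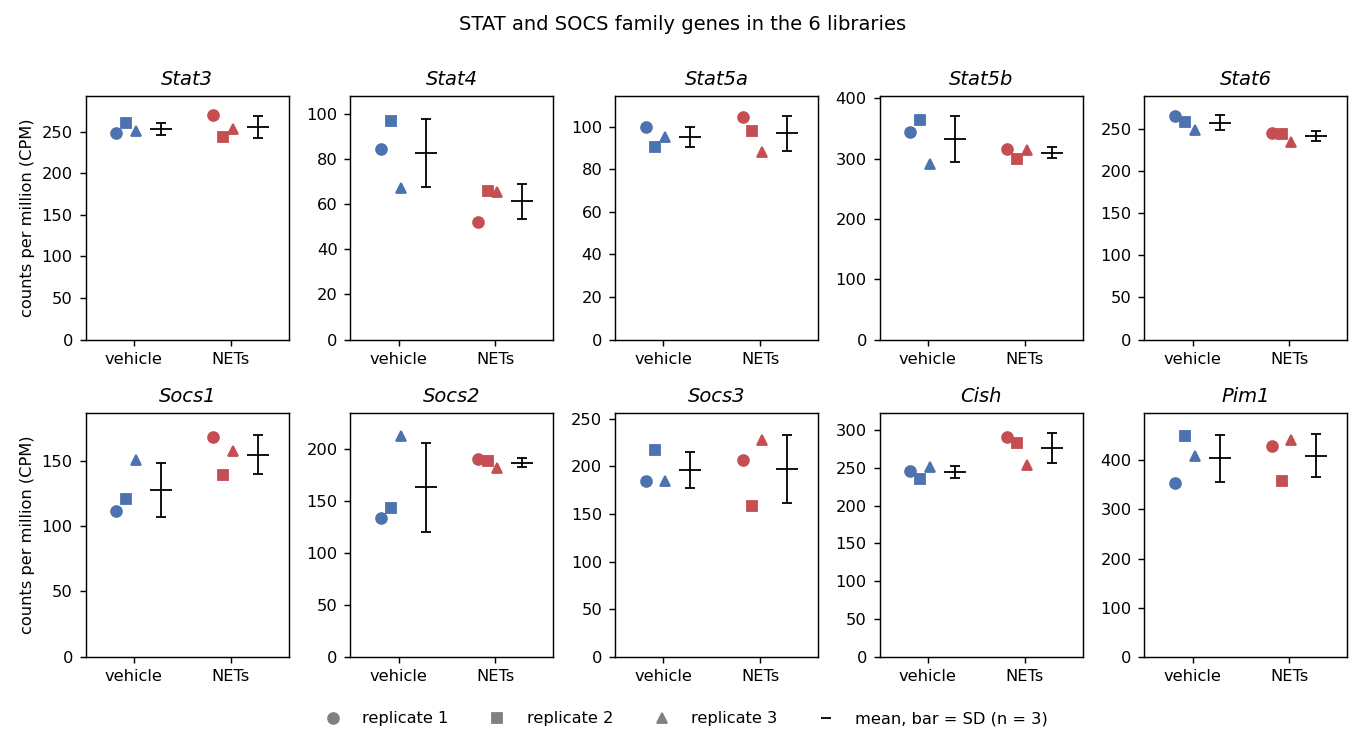
CPM (vertical axis, from 0) of the 10 genes in each library, by group, with replicates as symbols and the mean and SD beside them. Stat4 and Stat6 were lower in all NETs libraries and Cish higher, while vehicle replicate 3 stood with the NETs libraries for Socs1 and above them for Socs2.

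Stat4 transmits IL-12 signals and drives the interferon-gamma programme of Th1 cells (ENSMUSG00000062939; chr1:51987148-52107189, plus strand, build GRCm38 as in the deposited table, as for all genes below). It stood at 84.1, 96.8 and 67.0 CPM in vehicle replicates 1 to 3 and at 52.2, 65.8 and 65.4 CPM in NETs replicates 1 to 3. The groups did not overlap, but vehicle replicate 3 lay only just above the highest NETs library. Vehicle averaged 82.6 ± 14.9 CPM and NETs 61.1 ± 7.73 CPM (SD, n = 3 each), which gave a ratio of 0.745 and a log2 fold change of −0.42 (SE 0.13; 95% interval −0.71 to −0.14). The edgeR p was 0.00657 before and 0.240 after adjustment over all genes, rank 379 of 13900. Without vehicle replicate 3 the log2 fold change was −0.55 with an adjusted p of 0.0265, and without vehicle replicate 2 it was −0.29 with an adjusted p of 0.639. With no filter on low counts Stat4 passed at an adjusted p of 0.0127, where 1.30% of 24780 genes passed. In the annotation 26.7% of its exonic bases are shared with Gm28177, a transcript on the same strand that was given 16 reads with vehicle and 14 with NETs.

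Stat5a and Stat5b, the carriers of the IL-2 signal, lie head to head on chromosome 11 with 8626 bases between their starts (Stat5b, ENSMUSG00000020919; chr11:100780731-100850724, minus strand; Stat5a, ENSMUSG00000004043; chr11:100859351-100885169, plus strand). Stat5b stood at 344, 364 and 291 CPM with vehicle and 316, 299.9 and 314 CPM with NETs. Its lowest and highest values were both vehicle libraries, so all NETs values lay inside the vehicle range. The log2 fold change of Stat5b was −0.09 (95% interval −0.29 to 0.10; edgeR adjusted p = 0.707). Stat5a stood at 99.7, 90.5 and 95.2 CPM with vehicle and 105, 98.1 and 88.1 CPM with NETs, which overlapped. Its log2 fold change was 0.04 (95% interval −0.15 to 0.23; edgeR adjusted p = 0.894).

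The balance between the 2 STAT5 genes was read within each library. Stat5b took 77.5%, 80.1% and 75.3% of their joint reads with vehicle and 75.1%, 75.4% and 78.1% with NETs. The exact binomial 95% intervals of the vehicle shares, which cover counting error only, were 76.6 to 78.4, 79.1 to 81.0 and 74.3 to 76.4. These 3 intervals did not overlap. The means of 77.6% ± 2.37 and 76.2% ± 1.64 (SD, n = 3 each) differed by −1.45 percentage points (exact permutation test over libraries, two-sided, p = 0.6, where no p below 0.1 can be reached). The 2 genes are similar in sequence: 608 stretches of 50 bases occur in transcripts of both, 8.21% of those of Stat5a and 10.98% of those of Stat5b. Reads within such stretches cannot be assigned to one gene by sequence.

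Stat3, the factor for IL-6 and IL-21 signals, is the next gene on chromosome 11 (ENSMUSG00000004040; chr11:100885098-100939540, minus strand), and its 3′ end overlaps that of Stat5a by 72 bases. It stood at 248, 261 and 251 CPM with vehicle and 270, 243 and 252 CPM with NETs. This was the narrowest range among the 10 genes, 0.15 on the log2 scale from the lowest to the highest library. The log2 fold change was 0.02 (95% interval −0.15 to 0.19; edgeR adjusted p = 0.932), and its sign turned without NETs replicate 1 or vehicle replicate 1. Because the use of strand in counting is not given, reads in the overlap with Stat5a cannot be told apart, but it makes up only 0.756% of the exonic bases of Stat3 and 1.01% of those of Stat5a.

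Stat6 carries IL-4 signals toward the Th2 fate, and IL-4 was blocked in these cultures (ENSMUSG00000002147; chr10:127642986-127660957, plus strand). It stood at 265, 258 and 248 CPM with vehicle and 244, 244 and 234 CPM with NETs. All NETs libraries lay below all vehicle libraries by a narrow margin. The log2 fold change was −0.08 (SE 0.08; 95% interval −0.25 to 0.08; edgeR adjusted p = 0.677). It kept its sign in all 13 alternatives, between −0.11 and −0.07.

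Cish, an SH2 protein induced by STAT5 that damps IL-2 and T cell receptor signals, carries both motif copies printed above (ENSMUSG00000032578; chr9:107296026-107302784, plus strand). It stood at 245, 236 and 251 CPM with vehicle and 291, 283 and 254 CPM with NETs. The groups did not overlap, though NETs replicate 3 lay just above vehicle replicate 3. The means of 244 ± 7.77 and 276 ± 19.5 CPM (SD, n = 3 each) gave a 1.14-fold ratio and a log2 fold change of 0.19 (SE 0.08; 95% interval 0.02 to 0.36). The edgeR p was 0.0334 before and 0.352 after adjustment. Cish kept its sign in all 13 alternatives and passed in 0 of them, with an adjusted p between 0.194 and 0.822. In the annotation 7.46% of its exonic bases are shared with the antisense gene Gm17041, listed at 0 reads, and 4.07% with Gm17040, on the opposite strand, with 50 reads with vehicle and 56 with NETs.

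Socs1 binds and inhibits JAK kinases and restrains interferon and common gamma chain cytokine signals (ENSMUSG00000038037; chr16:10782240-10785536, minus strand). It stood at 111, 121 and 150.3 CPM with vehicle and 168, 139 and 157 CPM with NETs. Vehicle replicates 1 and 2 lay below every NETs library, and vehicle replicate 3 lay among them. The means of 127 ± 20.3 and 154 ± 14.8 CPM (SD, n = 3 each) gave a 1.22-fold ratio and a log2 fold change of 0.29 (SE 0.11; 95% interval 0.05 to 0.53). The edgeR p was 0.0208 before and 0.305 after adjustment. Without vehicle replicate 3 the log2 fold change was 0.42 and the adjusted p 0.0404. Without vehicle replicate 1 it was 0.19, with an adjusted p of 0.709.

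Socs2 is a further STAT5-induced member, best known for limiting growth hormone signals (ENSMUSG00000020027; chr10:95385362-95417180, minus strand). It stood at 133, 144 and 213 CPM with vehicle and 190.3, 189 and 182 CPM with NETs. The NETs libraries lay close together, and vehicle replicate 3 was the highest of the 6. Vehicle averaged 163 ± 43.1 CPM and NETs 187 ± 4.36 CPM (SD, n = 3 each), and the log2 fold change was 0.21 (SE 0.14; 95% interval −0.09 to 0.51; edgeR adjusted p = 0.546). Without vehicle replicate 3 it was 0.44 with an adjusted p of 0.0235, and without vehicle replicate 1 it was 0.07 with an adjusted p of 0.920. The difference between vehicle replicate 3 and the mean of the other vehicle libraries, 0.62 on the log2 scale, was larger than the difference between the groups.

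Socs3 inhibits gp130 cytokine receptors such as that of IL-6 and is a target of STAT3 (ENSMUSG00000053113; chr11:117966079-117970047, minus strand). It carries the other motif copy printed above. It stood at 185, 218 and 185 CPM with vehicle and 207, 159 and 228 CPM with NETs. The lowest and the highest library were both NETs libraries. The log2 fold change was 0.02 (95% interval −0.24 to 0.29; edgeR adjusted p = 0.955). Its sign turned when NETs replicate 1, NETs replicate 3, vehicle replicate 1 or vehicle replicate 3 was left out.

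Pim1, a serine and threonine kinase induced by STAT5 and STAT3 that promotes survival, had the most reads of the 10 genes (ENSMUSG00000024014; chr17:29490812-29496111, plus strand). It stood at 353, 449 and 409 CPM with vehicle and 429.8, 358 and 440.1 CPM with NETs, which overlapped throughout. The log2 fold change was 0.03 (95% interval −0.20 to 0.26; edgeR adjusted p = 0.933). The sign of the Pim1 value turned without NETs replicate 1, NETs replicate 3 or vehicle replicate 1.

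**Figure D2:**
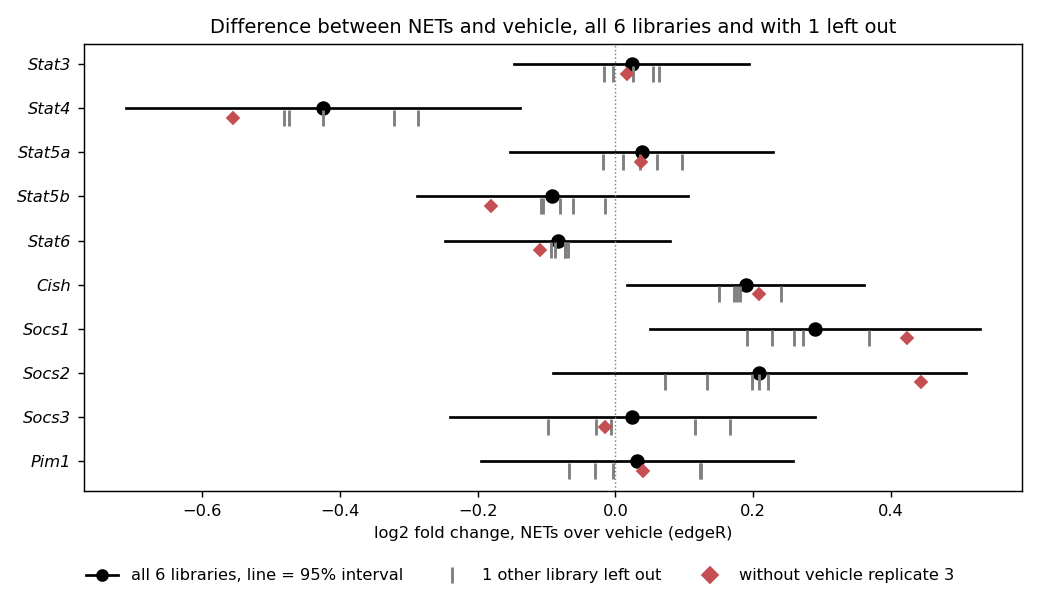
Log2 fold change of NETs over vehicle for the 10 genes (horizontal axis), with black points and 95% intervals from all 6 libraries, grey ticks for fits with 1 other library left out and red diamonds for the fit without vehicle replicate 3. The diamonds lie furthest from the black points for Socs2 (0.44 against 0.21), Socs1 (0.42 against 0.29) and Stat4 (−0.55 against −0.42).

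Vehicle replicate 3 therefore bears on several of the 10 genes at once, and not on these alone. Its value lay inside the range of the NETs libraries for Stat3, Stat5a, Socs1, Socs3 and Pim1. It lay above that range for Stat4, Stat6 and Socs2 and below it for Stat5b and Cish. Without this library 3 of the 10 genes passed the edgeR threshold, Socs2 and Socs1 upward and Stat4 downward, where 405 of 14391 genes (2.81%) passed. Leaving out any other single library gave 0 of the 10. Library pairs were also compared by chi-square over its degrees of freedom, where a larger value means a larger difference. By this measure vehicle replicate 3 stood at 8.78, 11.33 and 11.97 from NETs replicates 2, 3 and 1. It stood at 11.44 and 17.88 from vehicle replicates 1 and 2, which were at 9.62 from each other. Its nearest library was thus NETs replicate 2. The choice of vehicle replicate 3 was made after its values were seen in these data, and the labels give no reason to set it aside.

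Profiles over the 6 libraries were compared by the root mean square difference of log2 CPM after centring each gene on its own mean. Socs1 and Socs2 were each other's nearest among the 10 genes, at 0.12, and both were lowest in vehicle replicates 1 and 2. Socs3 and Pim1 were each other's nearest at 0.09, and both were low in NETs replicate 2 and vehicle replicate 1 and high in NETs replicate 3 and vehicle replicate 2. In vehicle replicate 3 they parted, at −0.08 for Socs3 and 0.02 for Pim1. The distances of both pairs were smaller than each gene's own root mean square around its mean, 0.21 for Socs1, 0.24 for Socs2, 0.17 for Socs3 and 0.14 for Pim1. How many of all genes lay as near to these 4 genes was not counted. The measure is not scaled for range, so genes with flat profiles lie close together whatever their shape, and no pairing is drawn for Stat3, Stat5a, Stat6 or Cish from it. The range of Stat4 over the libraries, 0.89 on the log2 scale, was the widest, followed by 0.67 for Socs2 and 0.59 for Socs1. Among the 9633 other genes averaging 5 CPM or more (predicted genes with Gm or Rik symbols left out), those nearest to Cish were Rnf219 (0.0211), Prpf38a (0.0255), Slc35d1 (0.0274), Fto (0.0276) and Carhsp1 (0.0279). These are the smallest of 9633 distances over 6 libraries, and no link of these genes with Cish was tested.

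**Figure D3:**
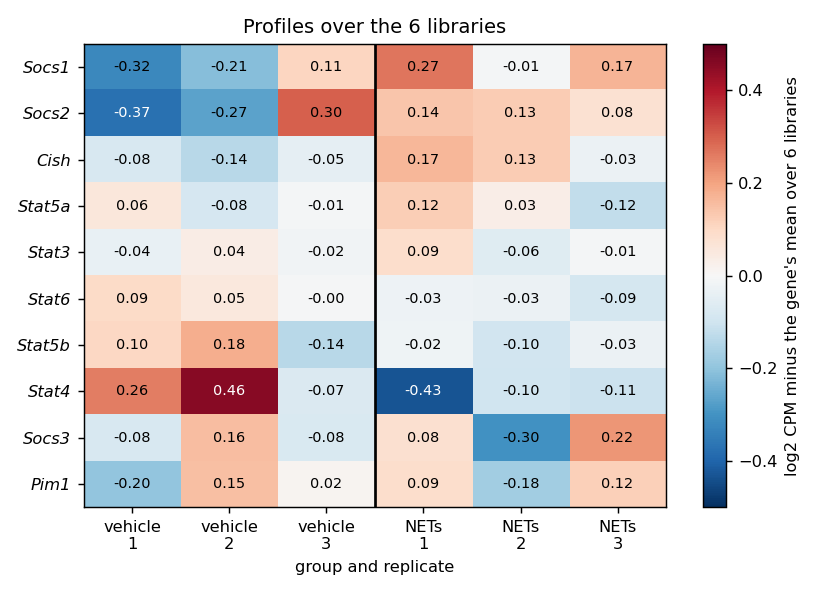
Log2 CPM of each gene minus its mean over the 6 libraries (colour and printed value), with genes as rows and libraries as columns. Socs1 and Socs2 share low values in vehicle replicates 1 and 2 and a value above 0 in vehicle replicate 3. Socs3 and Pim1 share their sign in every library but vehicle replicate 3, with both signs in each group.

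Levels of different genes were set side by side per length. In the deposited values the length used for Pim1 differed from the mean of its annotated transcripts, unlike that of the other genes, as given below. By the deposited FPKM (counts per kilobase of length, scaled to library size) Stat6 had the highest mean, 208 ± 7.05 with vehicle and 195 ± 4.79 with NETs (SD, n = 3 each). Its FPKM lay above those of Socs3, the next gene, in every vehicle library but overlapped them with NETs, where Socs3 reached 208 in replicate 3. Socs3 (179 ± 17.2 and 180.4 ± 32.5), Pim1 (153 ± 18.2 and 155 ± 16.9) and Stat3 (150.0 ± 4.02 and 151 ± 7.93) came next. In FPKM Socs3 overlapped Pim1, and Pim1 overlapped Stat3, in both groups. With vehicle every Socs3 library lay above every Stat3 library. In the same unit Socs2 (115 ± 30.4 and 132 ± 3.07) and Cish (110.3 ± 3.51 and 125 ± 8.83) overlapped too, while every Cish library lay above every Stat5b library (90.8 ± 10.2 and 84.5 ± 2.40). The lowest FPKM values were those of Stat4 (45.4 ± 8.21 and 33.6 ± 4.25), Socs1 (44.8 ± 7.14 and 54.3 ± 5.22) and Stat5a (39.2 ± 1.90 and 39.9 ± 3.41). With vehicle these 3 genes overlapped in FPKM. With NETs Socs1 lay above Stat5a in every library, and Stat4 came last, its highest library (36.2) just under the lowest of Stat5a (36.3). Stat5a, the last with vehicle, was still above 73.7% of all genes tested.

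The order in FPKM depends on the length divided by. For 9 of the 10 genes, all but Pim1, that length equalled the whole-number part of the mean length of the gene's annotated GENCODE M21 transcripts, within 0.5 bases, as it did for 94.3% of 10259 genes. Short partial transcripts lower this mean: it was 1238 bases for Stat6, whose longest transcript has 3775, and 1687 bases for Stat3, whose longest has 6042. For Pim1 the mean in M21 was 1297 bases, but the length divided by was 2638 bases, and a longer divisor gives a lower FPKM. The deposited gene length of Pim1 was also 2638 bases, where the M21 model has 3362 exonic bases, and its deposited ends differ from M21. Whether Pim1 was divided by another kind of length or by the mean of a different gene model was not tested. The FPKM rank of Pim1, and that of Stat6 as the highest, therefore depend on the gene models used. Per kilobase of the longest transcript, Pim1 led at 149.6 ± 17.8 CPM with vehicle, ahead of Socs3 at 76.8 ± 7.40, Stat6 at 68.1 ± 2.31 and Stat5b at 63.9 ± 7.21 (SD, n = 3 each). On that scale Stat3 (41.9 ± 1.12) was below Cish (52.0 ± 1.65), the reverse of their order in FPKM. With vehicle, Stat4 and Stat5a were the lowest of the 10 on this scale, at 27.7 ± 5.01 and 24.0 ± 1.16, while Socs1, at 43.8 ± 6.99, moved from rank 9 in FPKM to rank 6.

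**Figure D4:**
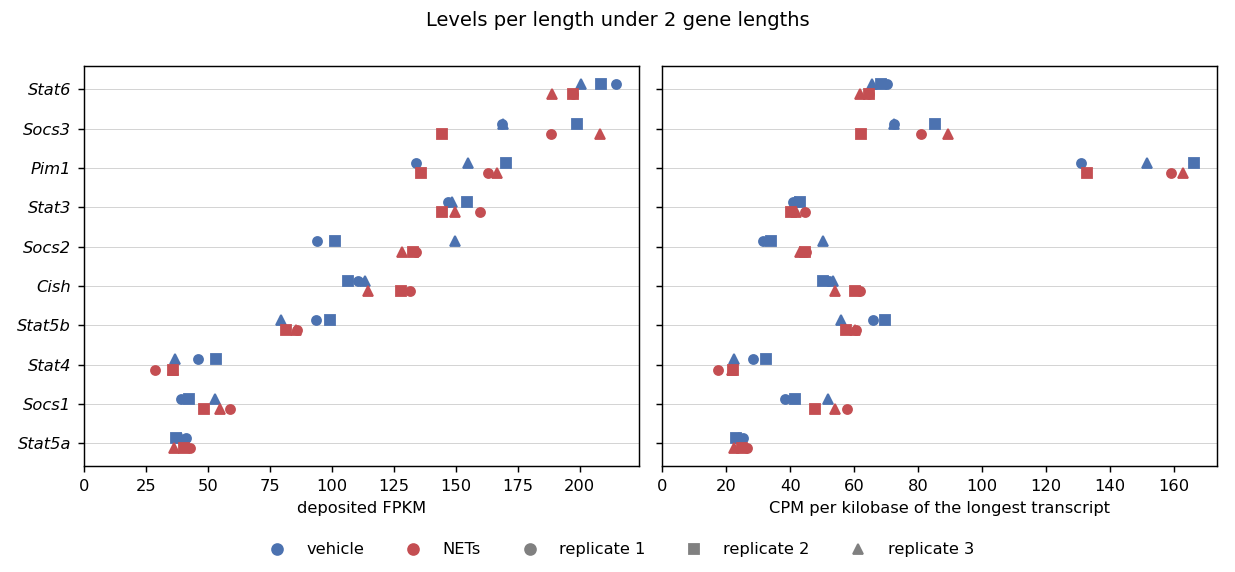
Level of each gene in each library as deposited FPKM (left) and as CPM per kilobase of the longest annotated transcript (right), by group and replicate. With vehicle Pim1 has rank 3 by FPKM and rank 1 by the longest transcript. Its FPKM divides by 2638 bases, and those of the other genes by the mean length of their GENCODE M21 transcripts. That mean is 1297 bases for Pim1, whose deposited gene model differs from M21. Stat4 and Stat5a are among the 3 lowest on both scales.

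The other genes of the pathway were read from 12 lists with 94 entries, chosen with earlier results of these data known. Counting each gene once and leaving out the 10, 88 genes were listed and 72 tested. Of the 72, 0 passed the edgeR threshold, 4 were higher and 11 lower at an unadjusted p under 0.05, and the median log2 fold change was −0.03. DESeq2 called 2 of them, the receptor gene Il7r (−0.56, adjusted p = 0.0161) and the cyclin gene Ccnd3 (0.28, adjusted p = 0.0457). The shares of all genes tested at an unadjusted p under 0.05 were 6.72% higher and 6.06% lower.

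Of 16 cytokine ligand genes only Osm, Lif and Il2 had reads enough to test. Osm, a gp130 cytokine of activated T cells and a known STAT5 target, stood at 43.1, 46.5 and 58.4 CPM with vehicle and 69.0, 54.7 and 63.1 CPM with NETs, which overlapped through vehicle replicate 3. Its log2 fold change was 0.35 (SE 0.13; edgeR adjusted p = 0.282), and without vehicle replicate 3 it was 0.48 with an adjusted p of 0.0441. Il2 itself was low, at 2.84 to 4.85 CPM with vehicle and 1.81 to 4.37 CPM with NETs, and IL-2 was supplied in the medium.

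Of 20 receptor chain genes 19 were tested, 0 passed by edgeR, and 1 was higher and 4 lower at an unadjusted p under 0.05. The median log2 fold change of these 19 was 0.03. The NETs libraries lay wholly above vehicle in 2 of the 19 and wholly below in 5, beside 7.68% and 9.04% of all genes tested. Il2rb, the signalling chain shared by IL-2 and IL-15 receptors, stood at 972, 932 and 1115 CPM with vehicle and 1199, 1179 and 1144 CPM with NETs, all higher (log2 fold change 0.23, SE 0.08; adjusted p = 0.277). Il2rg, the common gamma chain, went the other way, at 279, 307 and 281 CPM with vehicle and 243, 233 and 266 CPM with NETs (log2 fold change −0.21, SE 0.09; adjusted p = 0.324). Il7r, the IL-7 receptor chain of resting T cells, stood at 201, 213 and 154 CPM with vehicle and 105, 133 and 146 CPM with NETs. Its log2 fold change was −0.56 (SE 0.14; edgeR adjusted p = 0.223), and it passed with no filter on low counts (2.05e-05) and without vehicle replicate 3 (0.0191). Il6st, which encodes gp130, was at −0.24 (adjusted p = 0.289). The fourth lower gene, Ifngr1 (−0.24, adjusted p = 0.367), was named after its values were seen.

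Among the JAK kinases, which sit on these chains, the log2 fold change was −0.27 for Jak2, −0.14 for Jak1, −0.11 for Jak3 and 0.02 for Tyk2. Jak2 stood at 312, 323 and 316 CPM with vehicle and 262, 273 and 247 CPM with NETs, so the groups were apart with little spread (SE 0.08; edgeR adjusted p = 0.223). Jak1 and Jak3, the pair that serves IL-2, averaged 781 ± 29.2 and 362 ± 73.9 CPM with vehicle and 704 ± 41.3 and 332 ± 13.7 CPM with NETs (SD, n = 3 each). Stat2, which carries type I interferon signals, was at −0.10. None of these 5 genes passed by edgeR, by DESeq2 or by limma on FPKM, and only Jak2 had an unadjusted edgeR p under 0.05.

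The SOCS genes outside the 10 are less tied to cytokine feedback: Socs4, Socs5, Socs6 and Socs7. All 4 had log2 fold changes below 0, with a median of −0.19, where Socs1, Socs2, Socs3 and Cish lay above 0. Socs5 stood at 34.5, 31.4 and 31.5 CPM with vehicle and 27.7, 25.2 and 20.4 CPM with NETs, all lower (log2 fold change −0.40, SE 0.13; edgeR adjusted p = 0.261). Socs4 (−0.18) and Socs6 (−0.19) were likewise lower in every NETs library, and Socs7 (−0.02) overlapped. Over all genes tested, 9.04% lay wholly below vehicle. The difference between the 2 sets of SOCS genes was not tested, and 0 of the 8 genes passed by edgeR, DESeq2 or limma on FPKM.

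**Figure D5:**
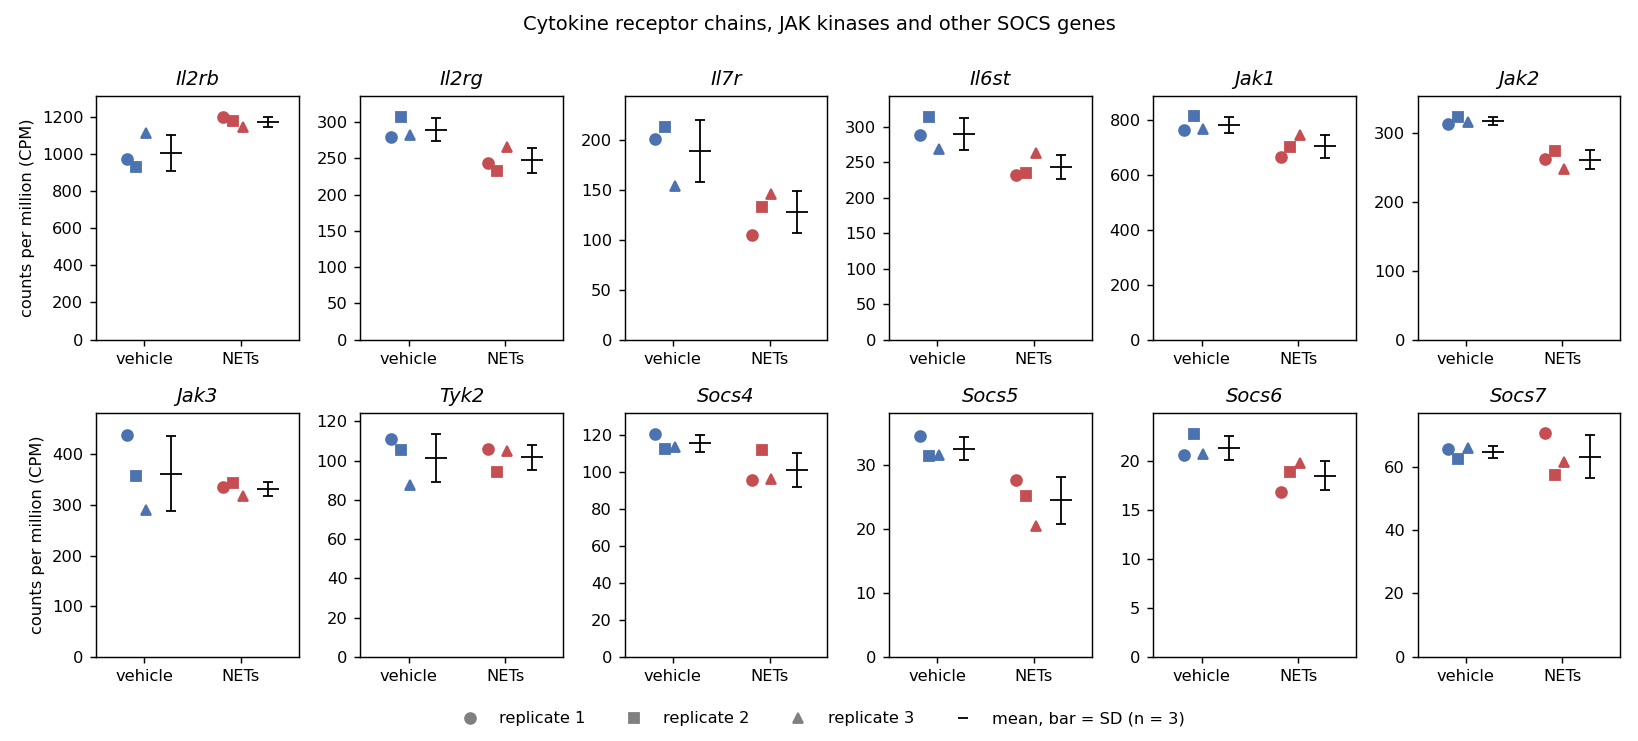
CPM (vertical axes, from 0) of receptor chain genes, JAK kinase genes and the SOCS genes outside the 10, by group, with replicates as symbols and the mean and SD beside them. Il2rb was higher in every NETs library, while Il2rg, Il7r, Il6st, Jak1, Jak2, Socs4, Socs5 and Socs6 were lower in every NETs library. The 4 receptor chain genes shown are those with the smallest p of 19 tested, so their separation is partly a matter of selection. Of the 19, 2 lay wholly above and 5 wholly below, beside 7.68% and 9.04% of all genes tested.

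SOCS proteins work with elongin B and C, cullin 5 and a RING protein as a ubiquitin ligase. Of 5 such partner genes 0 passed by edgeR, 1 was higher at an unadjusted p under 0.05, and the median log2 fold change was 0.19. That gene, Elob (elongin B), stood at 86.4, 82.5 and 96.0 CPM with vehicle and 109.7, 100.1 and 110.2 CPM with NETs (log2 fold change 0.28, SE 0.09; adjusted p = 0.240). Eloc and Rnf7 were each at 0.19 and Cul5 at −0.19. Of 10 other inhibitors, phosphatases, PIAS proteins and adaptors, 0 passed and the median was 0.03, with Pias1, a SUMO ligase that restrains STAT signalling, at −0.25 (edgeR adjusted p = 0.305), Ptpn1 at 0.20, Ptpn11 at 0.14 and Ptpn6 at 0.11. The kinase genes related to Pim1 were at 0.03 for Pim2 and −0.33 for Pim3 (adjusted p = 0.367).

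Known targets of STAT5 lay on both sides of 0. Of 13 genes 0 passed by edgeR, 2 were higher and 1 lower at an unadjusted p under 0.05, and the median log2 fold change was 0.13. Of the 13, which include Bcl6, a gene that STAT5 represses, 7 lay above 0 and 6 below. These counts and the median therefore do not give a direction of STAT5 action. The NETs libraries lay wholly above vehicle in 1 of the 13 and wholly below in 3, beside 7.68% and 9.04% of all genes tested. Ccnd3, a D cyclin of cell cycle entry, stood at 338, 341 and 364 CPM with vehicle and 430.0, 409.8 and 419.7 CPM with NETs. The groups were apart by more than their spread (log2 fold change 0.28, SE 0.08; edgeR adjusted p = 0.223). The other higher gene was Osm, described above. Bcl6, a factor of follicular helper cells that STAT5 represses, stood at 12.1 to 16.3 CPM with vehicle and 10.5 to 11.4 CPM with NETs (log2 fold change −0.43, SE 0.17; adjusted p = 0.326). Lta, which encodes lymphotoxin alpha, was at 0.25 (adjusted p = 0.401), and at 0.42 with an adjusted p of 0.0339 without vehicle replicate 3. Il2ra, the inducible IL-2 receptor chain, and Foxp3, the factor of regulatory T cells, were named after their values were seen. Il2ra stood at 970 to 1235 CPM with vehicle and 1073 to 1216 CPM with NETs (log2 fold change 0.13; adjusted p = 0.583), and Foxp3 at 102 to 154 and 134 to 166 CPM (0.20; adjusted p = 0.545), so both overlapped.

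Targets of the other STAT factors also had 0 genes past the threshold by edgeR, DESeq2 or limma on FPKM. For STAT3, 6 of 8 genes were tested, the median log2 fold change was −0.03, and 2 were lower at an unadjusted p under 0.05: Hif1a, the hypoxia factor (−0.28, SE 0.09; adjusted p = 0.252), and Rora, a Th17 factor (−0.55, SE 0.24; adjusted p = 0.361). Batf was at 0.12 and Junb at −0.08. For STAT4, 4 of 5 genes were tested with a median of −0.09 and 0 at an unadjusted p under 0.05. Il18r1 was at −0.17, Il12rb2 at 0.12, Furin at −0.01 and Tbx21, the Th1 factor, at −0.48 on 35 reads with vehicle and 26 with NETs. For STAT6, 4 of 5 were tested with a median of 0.10 and 0 at an unadjusted p under 0.05, with Ccr8 at 0.36, Il4ra at 0.14, Gata3 at 0.06 and Nfil3 at −0.27.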

How the data were processed

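The authors deposited raw counts per Ensembl gene for 54532 genes; a second deposited count table held identical values. Per the submitters' processing notes, STAR and DESeq2 were used, without versions, with build mm9; coordinates in the deposited table are those of GRCm38 for 9 of the 10 genes compared with GENCODE M21 (Pim1 differs at its ends). The sources used here do not name the counting program, the annotation release or whether strand was used. The authors also deposited FPKM values, used for levels and as an alternative. The members and lists were chosen with earlier results of these data known.

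Genes kept by edgeR's filterByExpr (13900) were scaled by TMM and tested with edgeR 4.0.16 (R 4.3.3; robust quasi-likelihood, two-sided, with group and no covariate), with Benjamini-Hochberg adjustment over all genes tested and a threshold of 0.05. Reads outside these genes were 0.135% of the total. Log2 fold changes are NETs over vehicle; standard errors are the log2 fold change over the square root of F. CPM uses library totals, and log2 CPM a prior count of 2. Genes named were the 10, all genes of lists of up to 4 (1 gene is not reported here), otherwise the 4 with the smallest p, and the 5 nearest to Cish. On simulated counts over 13613 genes the test of NETs against vehicle recovered 46.5% of genes changed by 0.5 and 83.5% of those changed by 1 on the log2 scale. The simulated counts were drawn independently for each gene and library, with a spread set by mean abundance. They held no shift shared by many genes of a library, so these rates do not measure the power of the test on the real libraries. Alternatives used RLE scaling, DESeq2 1.42.0, other filters, limma 3.58.1 on log2(FPKM + 0.1) and log2(FPKM + 1), the replicate block and each library left out. Intervals cover counting error only where said. The comparison of protein sequences that had been planned was not made.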

Additional observations from a re-analysis of the deposited data

How the results depend on the processing

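Over all genes, 0 were called by edgeR, also with RLE scaling, with a mean CPM of at least 5 and with the replicate block. DESeq2 called 130 (62 higher, 68 lower), edgeR with no low-count filter 322 (192 higher, 130 lower) and limma on FPKM 2 at each pseudocount, both higher. With 1 library left out the count ran from 0 to 405 (0 to 218 higher, 0 to 187 lower), the highest without vehicle replicate 3. Of the 10 genes 0 were called, against 1 (Stat4) with no low-count filter and 0 to 3 with 1 library left out. The cause was not tested. Stat4, Stat5b, Stat6, Socs1, Socs2 and Cish kept their sign in all 13 alternatives; Stat3, Stat5a, Socs3 and Pim1 did not. The order of the 10 levels, by the mean over all 6 libraries, changed for 8 genes with the deposited gene length, for 7 with the longest transcript (an alternative chosen after seeing the data), and for 0 to 4 with 1 library left out. Within vehicle the deposited length moved 6 genes and the longest transcript 8, and within NETs 8 and 7. The difference in the Stat5b share ran from −2.61 to −0.24 percentage points with 1 library left out and was −1.77 from FPKM. Libraries with the same number did not deviate together (correlations of deviations over genes of −0.03, −0.06 and −0.18), so they were not taken as pairs. Between libraries of different number the correlations ran from −0.18 to 0.22. Deviations sum to 0 within each group, which ties these values to one another, and a pairing other than by number was not tested. The replicate block called 0 genes and 0 of the 10. The 10 genes had at least 896 counts in each library.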

Other observations

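Some STAT-activating cytokine transcripts were too low to test; their reads over the 3 vehicle and the 3 NETs libraries are given with no test. Il12b, a subunit of IL-12 and IL-23, had 27 and 5 reads, and those with vehicle lay in replicates 1 (17) and 3 (10) and none in replicate 2. Il6 had 12 and 3 reads, Csf2 25 and 13, and Il21 8 and 3. Il23a had 7 and 13 reads, Il4 22 and 26 and Il12a 9 and 10. Ifng, Il7, Il9 and the receptor gene Il23r had 0 reads in all 6 libraries.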
